A study of Mus musculus with 6 samples.

Results

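The platelet-derived growth factor (PDGF) family was examined as 6 genes, the ligand genes Pdgfa, Pdgfb, Pdgfc and Pdgfd and the receptor genes Pdgfra and Pdgfrb. The members were chosen by their symbols, and all 6 were found among the 32285 genes of the count matrix. Brain cells of male mice aged 8 to 12 weeks were profiled with 10x Genomics single-cell RNA sequencing, which counts transcripts by unique molecular identifiers (UMIs) near their 3′ end. The animals were heterozygous RGS5::GFP reporters, in which GFP takes the place of a single Rgs5 allele, so all groups carried 1 intact copy of this pericyte gene. Permanent occlusion of the middle cerebral artery (pMCAO) was followed by collection of the ipsilateral (ipsi) or contralateral (contra) cortex at 1, 12 or 24 h, which gave 6 conditions with 1 library each. The methods list fewer mice for single-cell sequencing than there were libraries, so not all libraries came from separate animals. Counts of libraries given below are therefore not counts of animals. Live cells were sorted after depletion of myelin and neurons, with no selection on a pericyte marker. The barcodes carry library numbers 1 to 6, and no label ties a number to a condition. Values are therefore given by numbered library and no statement is made on stroke side or time. The labels give another kit version for the 12 h libraries than for the rest, whereas the methods name 1 version for all. By the methods the 24 h libraries were also read on another sequencer model than those of 1 and 12 h. Neither kit nor sequencer can be told apart from library and condition.

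PDGFs are dimeric growth factors that act on receptor tyrosine kinases. In brain vessels, PDGF-B secreted by the endothelium and held at its surface recruits and retains pericytes through the receptor PDGFRβ, whereas PDGF-A acts through PDGFRα, best known on oligodendrocyte precursors. PDGF-C and PDGF-D are secreted as latent factors and are activated when proteases such as tissue plasminogen activator and urokinase remove a regulatory domain.

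In total, 17357 cells passed the filters, from 1221 to 5873 per library, with a median of 5338 UMIs per cell overall and of 5053 to 5660.5 by library. By the methods, the study aggregated its libraries with a step meant to normalize sequencing depth. UMIs per cell may thus differ from those of the libraries as sequenced. The summed UMIs of the cells ranged from 7527251 to 33340937 per library. Clustering without the members gave 25 clusters, and 13 cell classes were named from marker genes, 11 of them with at least 50 cells. A class is called by its name with the ending "-like". Cluster 13 (259 cells, led by H2-Eb1, H2-Ab1 and Cd74), cluster 20 (61 cells, led by Il11 and Ccl11) and a cluster of 84 cells, of which 60.7% were called doublets, stayed without a class name. No cluster was named as neurons or as oligodendrocyte precursors, and the 6 neuron markers summed to 0 to 6.12 counts per 1000000 UMIs (CPM) in the named classes other than neuroblast-like cells (524 CPM). Among the cells, 26 barcode sequences occurred in more than 1 library (52 cells). Barcodes with 1 to 50 UMIs, taken as a measure of free RNA, held Pdgfa at 87.7 to 152 CPM, Pdgfb at 47.7 to 106, Pdgfrb at 14.6 to 26.6, Pdgfc at 5.96 to 19.9, Pdgfd at 1.17 to 4.47 and Pdgfra at 0 to 3.13 by library. These values are shares among the UMIs of such barcodes, not the amounts that free RNA adds to a cell.

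The genes lie on 5 chromosomes of the mm10 build. Pdgfa is at chr5:138976014-138997370 on the minus strand, Pdgfb at chr15:79995874-80014977 on the minus strand, Pdgfc at chr3:81036416-81214040 on the plus strand and Pdgfd at chr9:6168584-6378850 on the plus strand. Pdgfra is at chr5:75152292-75198215 on the plus strand. Overlapping genes in the matrix on the other strand were 6330403L08Rik for Pdgfa, Gm41361 for Pdgfb, Gm16000 for Pdgfc, Ddi1 for Pdgfd and Gm42802 for Pdgfra.

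The stretch before the transcription start is shown for the 3 ligand genes matched in the RefSeq table, since the levels of each differed between cell classes. Pdgfb was not matched there. Each is the 250 bases before a RefSeq start on GRCm38.p6, read 5′ to 3′ on the gene's strand, at chr5:138994945-138995194 (minus strand) for the outer RefSeq start of Pdgfa, chr3:81036166-81036415 (plus strand) for Pdgfc and chr9:6168236-6168485 (plus strand) for Pdgfd. The Pdgfa stretch lies within the gene span given above, which begins further upstream, at 138997370 on the minus strand. Capitals mark matches, on either strand, to the GC box core GGGCGG, the serum response element known as the CArG box, and the TATA motif TATAAA.
Pdgfa: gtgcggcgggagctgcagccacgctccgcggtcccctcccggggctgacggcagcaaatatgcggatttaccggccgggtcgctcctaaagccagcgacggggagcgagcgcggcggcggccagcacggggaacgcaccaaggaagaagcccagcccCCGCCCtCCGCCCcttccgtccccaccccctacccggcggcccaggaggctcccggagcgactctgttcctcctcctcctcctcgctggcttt
Pdgfc: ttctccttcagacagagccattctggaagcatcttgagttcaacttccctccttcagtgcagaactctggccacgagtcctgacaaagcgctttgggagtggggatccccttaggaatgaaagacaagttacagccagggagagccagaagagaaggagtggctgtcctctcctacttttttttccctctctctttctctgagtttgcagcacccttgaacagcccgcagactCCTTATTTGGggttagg
Pdgfd: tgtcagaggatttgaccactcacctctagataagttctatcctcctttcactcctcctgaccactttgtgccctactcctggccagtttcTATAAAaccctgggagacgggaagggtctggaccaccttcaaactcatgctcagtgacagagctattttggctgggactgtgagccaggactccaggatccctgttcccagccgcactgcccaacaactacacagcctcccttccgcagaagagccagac
The Pdgfa stretch held 2 matches to GGGCGG and none to the others, the Pdgfc stretch 1 CArG box, and the Pdgfd stretch 1 TATAAA. Of 32851 RefSeq stretches of the same length, 32.7% held GGGCGG, 1.47% a CArG box and 12.4% TATAAA. A match is a description of these letters and does not show that a factor binds there.

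**Figure D1:**
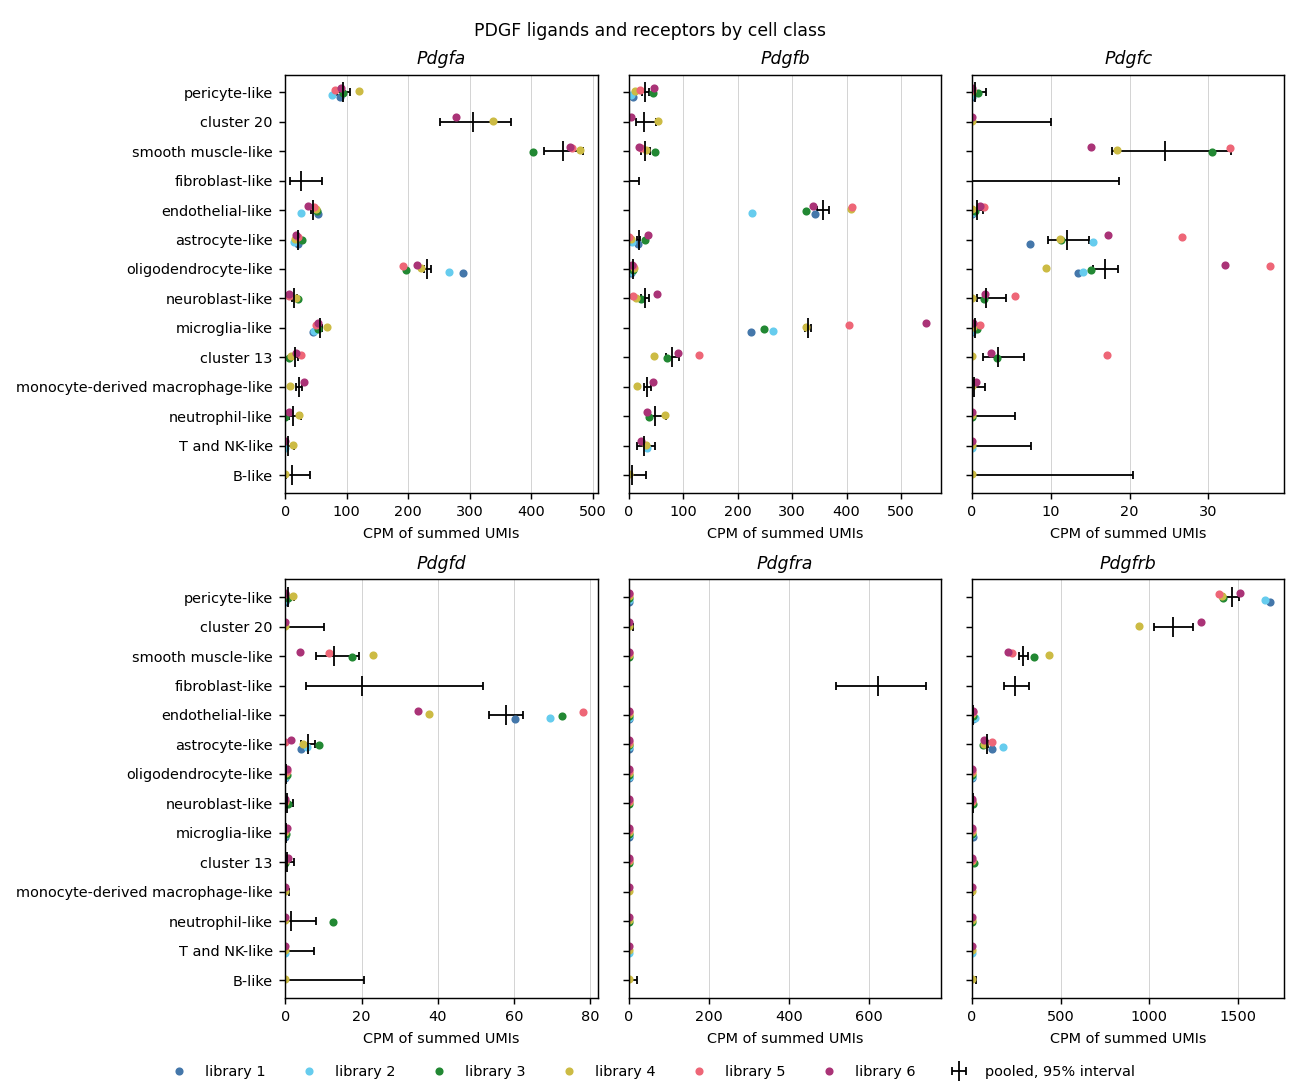
Level of each member in CPM of summed UMIs (linear axes that differ between panels) by cell class, with 1 point per numbered library for classes of at least 20 cells in it, and the pooled value with its exact 95% Poisson interval in black. Pdgfa stood highest in smooth muscle-like, Pdgfb in endothelial-like and microglia-like, Pdgfd in endothelial-like, Pdgfra in fibroblast-like and Pdgfrb in pericyte-like cells.

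Each ligand had its own order of cell classes, as shown in the plot of levels by class. Levels are UMIs summed over the cells of a class, in CPM, with exact 95% Poisson intervals in parentheses. All intervals here cover counting error only, since cells of 1 library are not replicates and no condition had a second library. Levels are compared between classes for the same gene and not between genes. Orders of classes are given among the 11 classes of at least 50 cells, which leaves out the 31 fibroblast-like and 22 choroid plexus-like cells, except for Pdgfra.

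Pdgfa, the gene of PDGF-A, was highest in smooth muscle-like cells, the contractile cells of arteries and arterioles, at 452 CPM (421-484; 255 cells). Oligodendrocyte-like cells followed at 231 CPM (225-237), pericyte-like cells at 94.3 (83.9-106), microglia-like cells at 56.9 (54.8-59.2) and endothelial-like cells at 45.3 (41.5-49.3). The ratio of smooth muscle-like to oligodendrocyte-like cells was 1.95 (1.81-2.10), and smooth muscle-like cells were higher in 4 of the 4 libraries with at least 20 cells of each. These libraries had 402, 479, 466 and 464 CPM in smooth muscle-like cells (libraries 3 to 6) against 196, 220, 191 and 214 CPM in oligodendrocyte-like cells. Within the vessel wall, smooth muscle-like cells exceeded pericyte-like cells 4.79-fold (4.19-5.49), again in 4 of 4 libraries. In the 171 smooth muscle-like cells of the mural sub-cluster led by Tagln and Acta2, Pdgfa was at 439 CPM (404-477). It was at 599 CPM (508-701) in 64 smooth muscle-like cells of sub-clusters that scored highest for pericyte markers and held few doublets. The class of T and NK-like cells held 2 UMIs of Pdgfa, a share of 2.11% of its cells (median 4707 UMIs), against 85.5% of smooth muscle-like (6737) and 77.8% of oligodendrocyte-like cells (8893). After thinning each cell to 1000 UMIs, the shares in these last classes were 34.5% and 19.8%.

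Oligodendrocyte-like cells, the myelinating cells, contributed 56.0% of all Pdgfa UMIs. Their level was 290 and 267 CPM in libraries 1 and 2 and between 191 and 220 CPM in the other 4 libraries, so the highest library exceeded the lowest 1.52-fold. Sub-clustering singled out 279 cells led by S100b, Klk6 and Hopx, in which Pdgfa reached 398 CPM (375-422) against 213 (206-219) in the 2373 other oligodendrocyte-like cells. This ratio of 1.87 (1.75-2.0) ran from 1.53 to 2.17 by library and was above 1 in 6 of 6 libraries. Pdgfc did not move with it, at 17.1 CPM (12.6-22.6) against 17.5 (15.8-19.4). Of the pathway list described further on, 26 genes had enough UMIs in this comparison, and 1 was at least 2 times higher (Sparc, which encodes a PDGF-binding matrix protein, 2.61-fold) and 2 at least 2 times lower (Ptprj and Lrp1). Among all 11636 genes with enough UMIs, 4.49% were at least 2 times higher and 6.0% at least 2 times lower, and no member crossed this fold.

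Pdgfb, which encodes the ligand that retains pericytes, was shared between endothelial-like cells at 357 CPM (347-368) and microglia-like cells at 329 CPM (324-335). Because microglia-like cells were the most numerous (8134 cells), they contributed 73.9% of all Pdgfb UMIs and endothelial-like cells 20.8%. Next came neutrophil-like cells at 48.4 CPM (33.3-67.9), and from there down to astrocyte-like cells at 18.1 (15.2-21.5) no class differed from its neighbour in the order beyond the counting interval. In several of these classes most Pdgfb UMIs lay in sub-clusters that carried genes of another class. All 33 Pdgfb UMIs of neutrophil-like cells lay in a sub-cluster of 37 cells led by Ctla2a, C1qa and Igfbp7, of which 18.9% were called doublets, and the other 3 sub-clusters held 0. In neuroblast-like cells, 68 of 81 UMIs lay in 34 cells led by the microglial genes C1qc, C1qb and C1qa. Cluster 13, with antigen presentation genes, had 79.7 CPM (68.8-91.9) and monocyte-derived macrophage-like cells 33.4 (27.6-40.2), so that microglia-like cells exceeded the latter 9.85-fold (8.19-12.0), in 2 of 2 libraries. Of the 113 UMIs of the monocyte-derived macrophage-like cells, 33 lay in 12 cells led by Sparc, Olfml3 and P2ry12.

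The order of the top pair depended on the library. Endothelial-like cells had 343, 227, 325, 409, 411 and 338 CPM of Pdgfb in libraries 1 to 6, and microglia-like cells 224, 264, 249, 326, 405 and 546 CPM. The pooled ratio of 1.08 (1.05-1.12) hid ratios of 1.53 in library 1 and 0.619 (0.577-0.665) in library 6, and endothelial-like cells were higher in 4 of 6 libraries. Without library 3 the pooled ratio was 0.966 and without library 6 it was 1.24. In microglia-like cells the level was lowest in library 1 and 2.44 times as high in library 6, whereas in endothelial-like cells it was lowest in library 2 and varied 1.81-fold. Condition, kit, sequencer and library cannot be told apart in these differences.

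**Figure D2:**
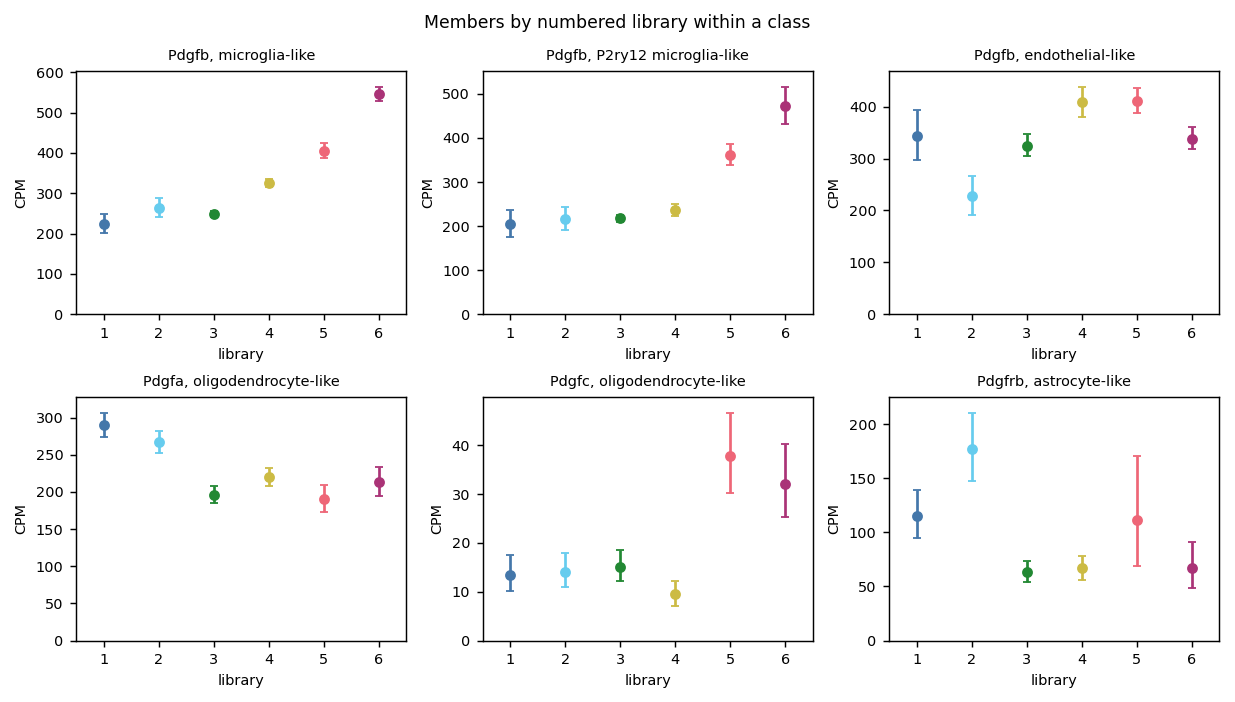
Level in CPM by numbered library for 6 pairs of member and cell class, with exact 95% Poisson intervals (linear axes from 0 that differ between panels). Pdgfb in microglia-like cells was highest in library 6 at 546 CPM, and Pdgfc in oligodendrocyte-like cells was higher in libraries 5 and 6 than in the other 4.

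Among microglia-like cells, the brain's resident macrophages, the library difference was also seen in the clusters led by the homeostatic genes P2ry12 and Gpr34 (4951 cells), with Pdgfb at 204, 216, 218, 235, 361 and 472 CPM in libraries 1 to 6. A cluster led by Fos and Egr1, immediate early genes, had higher Pdgfb than these P2ry12 cells in 6 of 6 libraries, at 382 against 247 CPM and a ratio of 1.55 (1.49-1.61). Pdgfa moved the same way in these cells, with a ratio of 1.59 (1.44-1.75), also above 1 in 6 of 6 libraries. Immediate early genes are also known to be induced by tissue dissociation, and its part in these ratios was not tested.

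Cells led by Lpl and Spp1, genes known from reactive microglia, came almost all from libraries 4 and 6 (982 of 1009). In those libraries Pdgfb was at 526 CPM against 274 in P2ry12 cells, a pooled ratio of 1.92 (1.81-2.03), with 2.01 (1.87-2.16) in library 4 and 1.24 (1.13-1.38) in library 6. Library 6 gave 448 of the 982 Lpl Spp1 cells but only 251 of the 1330 P2ry12 cells. Pooled ratios of this comparison thus mix unequal library shares. Pdgfa was at 88.6 against 41.3 CPM, a ratio of 2.14 (1.85-2.48), with 2.63 and 1.72 in the same libraries. Of 11242 genes with enough UMIs, 9.67% were at least 2 times higher and 13.7% at least 2 times lower in the Lpl Spp1 cells, and 1 member, Pdgfa, was among the higher. On the pathway list, 3 of 26 genes were at least 2 times higher, all among the proteases. They were Plau (urokinase, 3.68-fold), Plat (tissue plasminogen activator, 3.10-fold at only 2.99 against 0.965 CPM) and Furin (2.80-fold). The 4 that were at least 2 times lower were Sparc, Gab1, Pik3ca and Plcg1.

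Endothelial-like cells were split by vessel segment markers into arterial-like (364 cells), venous-like (102) and tip-like (491) groups and 1599 others. Pdgfb was at 375 CPM (348-404) in arterial-like, 366 (351-381) in other and 377 (353-402) in tip-like cells, but only 184 (153-220) in venous-like cells. The pooled ratios of arterial-like and tip-like to the other cells were both 1.03. By library the arterial-like ratio ran from 0.903 (0.729-1.11) in library 4 to 1.57 (1.12-2.16) in library 1. By sub-cluster, Pdgfb was at 336 and 448 CPM in arterial-like, 341 and 476 in tip-like and 338 to 438 in the other cells. The venous-like level was 0.504 times (0.417-0.605) that of the other endothelial-like cells and lower in 3 of 3 libraries, at 200, 215 and 100 CPM in libraries 4 to 6. Pdgfb in endothelial-like cells was therefore lowest in the group with venous markers. That group was a single sub-cluster, led by Lcn2, Lrg1, Vcam1, Il1r1, Ackr1 and Ptgs2. Whether its low Pdgfb, and its Pdgfd given below, belong to the vessel segment or to another state of these cells was not tested.

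Pdgfa followed another order in the same cells. It was at 126 CPM (110-143) in arterial-like cells against 26.0 (22.1-30.3) in the others, a ratio of 4.84 (3.94-5.96). The arterial-like values of 164, 108, 137, 175 and 107 CPM in libraries 1 and 3 to 6 all lay above the other endothelial-like values of 14.7 to 29.5 CPM. Pdgfa was thus high in the smooth muscle-like cells and in the endothelial-like group with arterial markers. The 6 smooth muscle markers summed to 21.6 CPM in arterial-like and 8.87 CPM in the other cells, against 32231 CPM in smooth muscle-like cells, with Cnn1 at 0 in both endothelial groups. Sub-clusters that also carried markers of another class (106 cells) were kept apart.

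Pdgfd, the gene of the latent ligand PDGF-D, was the ligand most restricted to the endothelium. Endothelial-like cells had 57.8 CPM (53.5-62.3) and 87.1% of all Pdgfd UMIs, followed among classes of at least 50 cells by smooth muscle-like cells at 12.8 (8.12-19.2) and astrocyte-like cells at 5.82 (4.19-7.86). The small choroid plexus-like and fibroblast-like classes held 4 UMIs each, at 23.4 CPM (6.38-60.0) and 20.2 CPM (5.51-51.8). The ratio of endothelial-like to smooth muscle-like cells was 4.51 (2.98-7.17) and above 1 in 4 of 4 libraries. By library the endothelial-like level was 60.2, 69.4, 72.6, 37.7, 78.0 and 34.7 CPM, so libraries 4 and 6 were the lowest. A UMI of Pdgfd was found in 21.0% of endothelial-like cells (median 4001 UMIs) against 0.025% of microglia-like cells (5150).

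The tip-like endothelial cells, named from Apln, Esm1, Angpt2 and other markers of sprouting cells, came mostly from libraries 4 and 6, with 160 and 321 cells. Their Pdgfd was at 17.9 CPM (13-24.2) against 67.7 (61.3-74.6) in the other endothelial-like cells, a ratio of 0.265 (0.189-0.363). Within library 4 the ratio was 0.353 (0.167-0.696) and within library 6 it was 0.275 (0.169-0.440). The other endothelial-like cells of these libraries, at 51.6 and 62.3 CPM, stood beside 60.6 to 79.1 CPM in libraries 1, 2, 3 and 5. The tip-like group joined a sub-cluster led by Kit, Plaur and Adamts4 (159 cells, 144 from library 4) and another led by Apln and Hmox1 (332 cells, 313 from library 6). Each also had 3 venous markers raised at least 2 times. The ratios of libraries 4 and 6 thus rest largely on different sub-clusters. Whether the low Pdgfd belongs to sprouting cells or to another state was not tested. Venous-like cells also had less Pdgfd, 30.2 CPM, a ratio of 0.447 (0.270-0.699), and arterial-like cells more, 89.0 CPM, a ratio of 1.31 (1.09-1.58).

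Set against all genes with enough UMIs, changes of 2-fold were not rare in these comparisons. In arterial-like cells 4.27% of 10555 genes were at least 2 times higher and 4.24% at least 2 times lower, and 1 member, Pdgfa, was among the higher. In venous-like cells 4.20% of 10291 genes were higher and 8.81% lower by this fold, and Pdgfd was among the lower, with Pdgfb just outside at 0.504. In tip-like cells 7.37% of 10590 genes were higher and 11.5% lower, and Pdgfd was among the lower. Of the 27 pathway genes with enough UMIs, 1 was higher and 1 lower in arterial-like cells, 0 and 4 in venous-like cells, and 2 and 3 in tip-like cells. Spry4, an inhibitor of receptor tyrosine kinase signalling, was 4.16-fold (3.02-5.77) higher in tip-like cells, and Nrp1, a co-receptor, was 0.303 times (0.228-0.396) as high in venous-like cells.

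**Figure D3:**
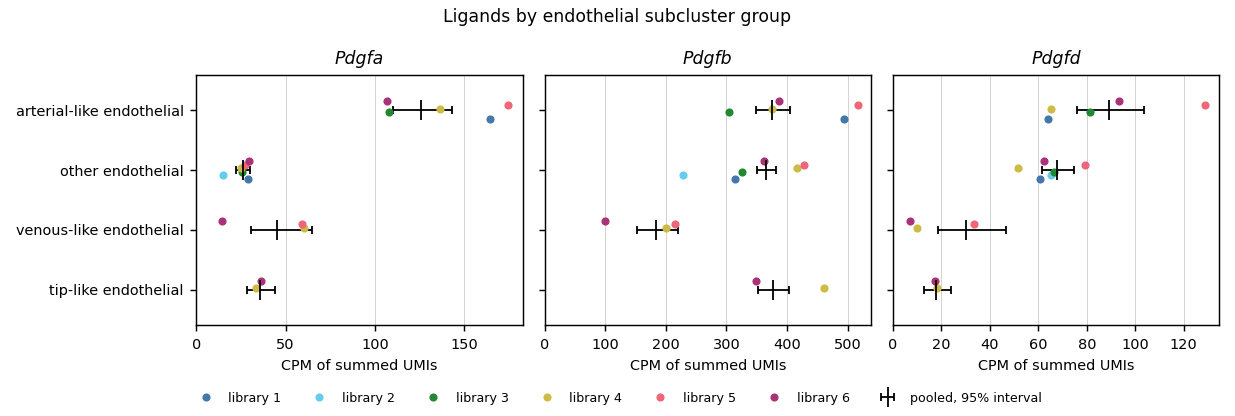
Levels of Pdgfa, Pdgfb and Pdgfd in CPM (linear axes) in endothelial-like groups defined by vessel segment markers, with 1 point per library of at least 20 cells and the pooled value with its exact 95% Poisson interval. Pdgfa was highest in arterial-like cells, Pdgfb was lowest in venous-like cells and Pdgfd was lowest in tip-like cells.

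Pdgfc, the gene of the latent ligand PDGF-C, had only 604 UMIs in 528 cells. Smooth muscle-like cells had 24.5 CPM (17.8-32.9), oligodendrocyte-like cells 16.9 (15.3-18.5) and astrocyte-like cells 12.1 (9.65-14.9), and the next class, neuroblast-like cells, had 1.82 (0.591-4.25). The ratio of the first to the second was 1.45 (1.04-1.98), but smooth muscle-like cells were higher in only 2 of 4 libraries, so their order differed between libraries. A UMI was found in 13.3% of oligodendrocyte-like cells against 0.209% of microglia-like cells.

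In oligodendrocyte-like cells, Pdgfc was at 13.5, 14.0, 15.1 and 9.44 CPM in libraries 1 to 4 and at 37.8 and 32.1 CPM in libraries 5 and 6. The latter libraries were above all of the others, with a 4.0-fold range over the 6. A sub-cluster of 283 cells had Per3 and Dbp, genes tied to the circadian clock, among its leading genes, and also Pdgfc itself. Most of these cells came from libraries 5 and 6 (113 and 135), and Pdgfc was at 38.2 CPM (30.5-47.2) in the sub-cluster. The sub-cluster led by S100b, Klk6 and Hopx also had its highest Pdgfc in libraries 5 and 6, at 33.5 and 28.2 CPM. Its levels rested on 4 to 12 UMIs per library. The difference was thus also seen outside the sub-cluster with Per3 and Dbp. In astrocyte-like cells the highest values were also in libraries 5 and 6, at 26.6 and 17.2 CPM, against 7.40 to 15.3 CPM in the others. Free RNA had its highest Pdgfc in the same libraries, at 19.2 and 19.9 CPM against 5.96 to 9.70, and its part in the difference was not tested.

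Pdgfra, the receptor for PDGF-A, was nearly confined to a small class. The 31 fibroblast-like cells, which express collagens and Dcn and line vessels and meninges, held 123 of its 134 UMIs (91.8%), in 26 cells, at 622 CPM (517-742). Choroid plexus-like cells held 3 UMIs, oligodendrocyte-like cells 3, endothelial-like and neuroblast-like cells 2 each and astrocyte-like cells 1. No UMI was found in 8134 microglia-like cells, which allows a level of up to 0.067 CPM at 3 counts, or in the 825 pericyte-like and 255 smooth muscle-like cells.

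Oligodendrocyte precursors are the best-known PDGFRα cells of the brain, and they were not found as a cluster. At least 2 of the 8 precursor markers were detected in 149 cells and at least 3 in 2 cells, and none of these cells held a Pdgfra UMI. The small number of fibroblast-like cells, 2 to 11 per library, allowed no comparison between libraries. Pdgfrb was detected in the same class at 243 CPM (179-322), and 17 of the 31 cells held UMIs of both receptors.

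Pdgfrb (chr18:61045150-61085061, plus strand), the receptor for PDGF-B, had its highest level in pericyte-like cells at 1466 CPM (1424-1509), with a UMI in 97.6% of the 825 cells and 73.2% of all its UMIs. Its level there ranged from 1396 to 1680 CPM over the 6 libraries, with a median of 1466, a 1.2-fold range. Smooth muscle-like cells had 287 CPM (263-313), 5.10-fold (4.66-5.60) less, in 4 of 4 libraries, at 350, 433, 227 and 202 CPM in libraries 3 to 6. Of these 255 cells, 171 fell in the mural sub-cluster led by Tagln and Acta2, the only one that scored highest for smooth muscle markers, and there Pdgfrb was at 182 CPM (159-206), 8.08-fold (7.08-9.25) below pericyte-like cells. Another 64 fell in sub-clusters that scored highest for pericyte markers and held few doublets, and had 906 CPM (793-1030). The smooth muscle-like value of 287 CPM is thus a mean over cells that differed in Pdgfrb. The 31 fibroblast-like cells had 243 CPM, 2.89-fold (2.11-3.88) above astrocyte-like cells. Astrocyte-like cells were next at 84.1 CPM (77.5-91.0), and endothelial-like cells were at 3.51 (2.52-4.76). After thinning to 1000 UMIs, a Pdgfrb UMI was found in 75% of pericyte-like, 27.1% of smooth muscle-like and 8.43% of astrocyte-like cells. Pericyte-like cells had a median of 5 Pdgfrb UMIs and smooth muscle-like cells of 1.

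Ligand and receptor were thus highest on different cells of the vessel wall for Pdgfb and Pdgfrb. Pericyte-like cells had 30.6 CPM of Pdgfb, 0.0856 times (0.0692-0.105) the endothelial-like level, and lower in 6 of 6 libraries. Of the 96 UMIs behind this value, 79 lay in the 79 cells of 3 mixed sub-clusters, in which over 40% of cells were called doublets, and 25 of them in 1 cell. In the 746 other pericyte-like cells Pdgfb was at 6.77 CPM (3.94-10.8), 0.0189 times (0.0110-0.0304) the endothelial-like level. Of the 44 pericyte-like cells with UMIs of both Pdgfb and Pdgfrb, 23 were called doublets. Among the 255 smooth muscle-like cells, 25 held UMIs of both, and 2 of these were called doublets. The 235 smooth muscle-like cells outside mixed sub-clusters had Pdgfb at 17.5 CPM (11.5-25.4) and Pdgfrb at 302 CPM (275-331). Pdgfb made up 47.7 to 106 CPM of free RNA by library, which is not the amount that free RNA adds to a cell. Oligodendrocyte-like cells outside mixed sub-clusters, without those led by S100b, Klk6 and Hopx, held Pdgfb at 0.196 to 1.08 CPM by library. The part of free RNA in the smooth muscle-like value was not tested. Pdgfa and Pdgfrb were on the same cells in smooth muscle-like cells, where 60.8% held a UMI of both, against 60.7% from the product of their shares. Pericyte-like cells were 2.08-fold (1.80-2.40) above endothelial-like cells for Pdgfa, higher in 6 of 6 libraries. The levels were 94.3 and 45.3 CPM, beside 87.7 to 152 CPM in free RNA, whose part was not tested. Of 12307 genes with enough UMIs, 21.2% were at least 2 times higher and 15.3% at least 2 times lower in pericyte-like than in endothelial-like cells, with Pdgfa and Pdgfrb among the higher and Pdgfb and Pdgfd among the lower.

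The pathway list holds 32 genes in 3 roles, and it was read most fully where Pdgfrb was high. Between pericyte-like and endothelial-like cells 14 of the 32 genes were at least 2 times higher and 4 at least 2 times lower. Over all 12307 genes with enough UMIs, 21.2% were higher and 15.3% lower by this fold. Among the 9 proteases and binding proteins, Cspg4 (the proteoglycan NG2, a pericyte marker) was at 559 against 0.685 CPM, Lrp1 (an endocytic co-receptor) at 275 against 6.08, and Nrp1 at 70.1 against 239. Of the 15 genes of proximal signalling, 6 were higher, with Nck2 at 5.48-fold (4.4-6.82), Src at 5.10-fold (3.71-7.05) and Pik3r1, a subunit of PI3-kinase, at 4.76-fold (4.25-5.34), and 3 were lower (Sos1, Plcg1 and Nck1). Of the 8 negative regulators, the inhibitors Spry2 (8.72-fold), Spry4 (5.4-fold) and Spred1 (4.08-fold) and the ubiquitin ligase gene Cblb (4.05-fold) were higher and none was lower.

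Smooth muscle-like cells had 0 of 31 pathway genes at least 2 times higher and 10 at least 2 times lower than pericyte-like cells. The 10 were Plat, Lrp1, Cspg4, Pdgfrl, Gab1, Pik3r1, Src, Nck2, Spry2 and Spry4, with ratios from 0.200 for Plat to 0.455 for Pik3r1. Over 10900 genes, 7.72% were at least 2 times higher and 17.9% at least 2 times lower in this comparison. Of the members, Pdgfa, Pdgfc (44 UMIs against 1) and Pdgfd (23 against 2) were among the higher and Pdgfrb among the lower. The median depth was 6737 UMIs in smooth muscle-like and 3317 in pericyte-like cells, and its part in these counts was not tested.

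Astrocyte-like cells held Pdgfrb in every library. Over libraries 1 to 6 the level was 115, 177, 63.4, 66.8, 112 and 67.3 CPM, highest in library 2 and 2.79-fold apart. A UMI was found in 35.8% of the 1163 cells (median 5586 UMIs), against 0.16% of microglia-like cells (5150) and 0.142% of oligodendrocyte-like cells (8893). The measure of free RNA was 14.6 to 26.6 CPM by library, below the astrocyte-like level in all 6.

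Pericytes and astrocyte end-feet adjoin at the vessel wall, and the pericyte markers were therefore read in the same cells. In the 1064 astrocyte-like cells outside doublets and mixed sub-clusters, Pdgfrb was at 89.5 CPM (82.2-97.3), or 6.11% (5.58-6.67) of the pericyte-like level. Vtn was at 0.00782% of its pericyte-like level of 18671 CPM, Rgs5 at 0.126% (0.083-0.183), Kcnj8 at 0.0303%, and Abcc9 had no UMI, against 4008 in pericyte-like cells. Atp13a5 was the exception among these markers at 1.46% (1.2-1.76). The other 6 markers were thus at 0.126% or less of their pericyte-like level, against 6.11% for Pdgfrb. Whether any Pdgfrb UMIs of the astrocyte-like cells came from pericytes was not tested.

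**Figure D4:**
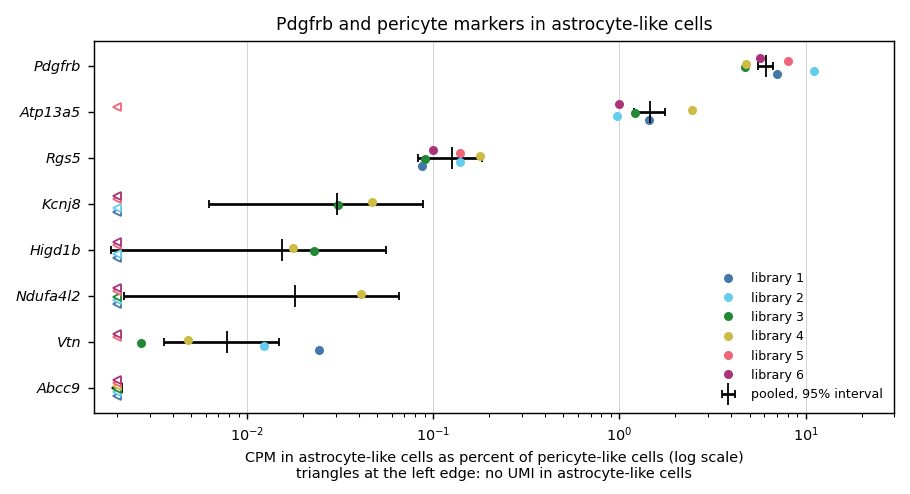
Level of Pdgfrb and of 7 pericyte markers in astrocyte-like cells as a percentage of the pericyte-like level (log axis), with 1 point per library, triangles at the left edge for libraries without a UMI, and the pooled value with its exact 95% interval. Pdgfrb stood at 6.11% and the markers between 0 and 1.46%.

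Ligand levels in astrocyte-like cells were partly tied to mixed sub-clusters. Pdgfb was at 0.811 CPM (0.263-1.89) in the 1064 cells, against 134 (111-159) in 88 cells of sub-clusters that also carried markers of another class. In oligodendrocyte-like cells Pdgfb was at 0.521 CPM (0.260-0.932) in 2373 cells and 101 (86.1-117) in 165 mixed cells. Unlike the 1064 cells, the 2373 kept called doublets and left out the sub-cluster led by S100b, Klk6 and Hopx. Nearly all Pdgfb UMIs of both classes were therefore in mixed sub-clusters. Pdgfc and Pdgfd did not follow this, with 12.2 CPM (9.57-15.2) and 5.03 CPM (3.42-7.14) in the 1064 astrocyte-like cells.

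Cluster 20 shared the mural genes and stood apart from the pericyte-like class. Its 61 cells came from library 4 (27 cells) and library 6 (34), and all 7 pericyte markers were detected, at a summed 8502 CPM against 30216 CPM in pericyte-like cells. The fibroblast markers summed to 1586 CPM, with Col1a1 and Dpt at 0, against 212 CPM in pericyte-like cells, and what part they have in the differences below was not tested. Compared with the 208 pericyte-like cells of the same libraries, Pdgfa was at 305 against 108 CPM, a ratio of 2.83 (2.13-3.79). The library values were 338 and 278 CPM in cluster 20 and 119 and 91.1 CPM in pericyte-like cells, with ratios of 2.83 (1.92-4.16) and 3.06 (1.94-4.90). Pdgfrb moved the other way, at 941 and 1293 CPM against 1414 and 1514 CPM, a pooled ratio of 0.779 (0.695-0.872). The pericyte-like class itself was not uniform for Pdgfa. Over all libraries, 30 pericyte-like cells of a mural sub-cluster had 350 CPM (252-474), against 81.0 (65.1-99.5) in the 331 of the largest. The smooth muscle markers of that sub-cluster scored 5.81 (mean log2 ratio to the median cluster), against 2.15 in the largest. It also held 29 smooth muscle-like cells, with Pdgfa at 645 CPM (506-811). A Pdgfa level like that of cluster 20 was thus also found among pericyte-like cells, but in a sub-cluster shared with smooth muscle-like cells.

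Of 7277 genes with enough UMIs, 8.51% were at least 2 times higher and 16.9% at least 2 times lower in cluster 20, and 1 member, Pdgfa, was among the higher. Of the 28 pathway genes with enough UMIs, 5 were higher and 5 lower. The higher ones were Plau at 128 against 7.26 CPM, the transcription factor Stat3 (2.43-fold), the phosphatase genes Ptpn1 (3.22-fold) and Ptpn2 (2.19-fold), and Cblb (3.0-fold). The lower ones were Cspg4 at 51.8 against 562 CPM, Lrp1, Nrp1, Gab1 and Rasa1. Plau encodes urokinase, which can activate PDGF-D, and Pdgfd itself had no UMI in these 61 cells, which allows up to 8.18 CPM at 3 counts.

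**Figure D5:**
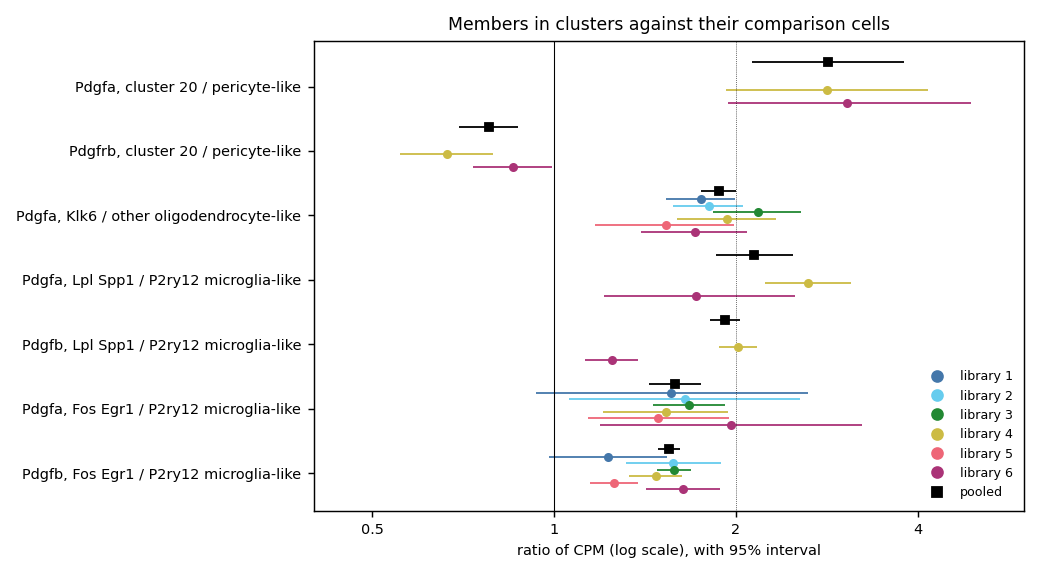
Ratio of CPM between a cluster and its comparison cells for Pdgfa, Pdgfb or Pdgfrb (log axis), with black squares for the pooled ratio, coloured points for each library and exact 95% intervals. Pdgfa was above 1 in each library shown, and Pdgfrb in cluster 20 was below 1 in libraries 4 and 6.

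For each member with at least 200 UMIs, the 3 genes with the most similar profile were found over the 11 classes of at least 50 cells, by Pearson's r of log2(CPM + 10) among 12934 genes. The classes come from the same libraries, and r is a description without a test. They were Apba1 (r = 0.945), Ctnna3 and Mb21d2 for Pdgfa, Arhgap27 (0.978), Gpr160 and Tal1 for Pdgfb, Dmpk (0.963), Fgf1 and Hr for Pdgfc, and Foxf1 (0.974), Smad6 and Krtap28-13 for Pdgfd. For Pdgfrb they were Rarres2 (0.995), Arhgap42 and Gpx8, all highest in pericyte-like cells. Between members, r was 0.734 for Pdgfa and Pdgfc, 0.538 for Pdgfb and Pdgfd, 0.508 for Pdgfa and Pdgfrb, and -0.149 for Pdgfb and Pdgfrb. Outside their 3 highest classes, Pdgfc was at 1.82 CPM or less and Pdgfd at 1.47 CPM or less. These levels lie far below the 10 CPM added before the log, so every r with Pdgfc or Pdgfd rests on few classes.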

How the data were processed

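The deposited matrix holds UMI counts per gene and barcode, which the authors made with Cell Ranger 5.0.1 (mm10) and aggregated over libraries, by their methods to normalize sequencing depth. The annotation is not given in the sources used here. Barcodes were kept by a per-library cell call (10% of the 99th percentile of the top 3000), at least 200 features and at most 10% mitochondrial UMIs. Counts were scaled to 10000, and 2000 variable genes, 30 components, 20 neighbours and Leiden clustering (resolution 0.8, scanpy 1.11.5) followed, without members, pathway and hemoglobin genes. Of 22913 barcodes with at least 200 features, 17357 were kept. Clusters were named from 20 marker lists. Doublets were scored by simulation and 2.13% were called; they stayed in unless stated. Levels are summed counts as CPM with exact 95% Poisson intervals; ratios have exact conditional intervals, and shares Clopper-Pearson intervals. With 1 library per condition, no test was made. Genes counted as 2-fold changed in a comparison needed at least 20 UMIs in it. Ratios between neighbouring classes in the order had no such minimum. Scripts were tested on simulated data.

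The members, the lists and the rule for named genes (the members, the pathway list, markers and the 3 most similar genes per member) were chosen with earlier results of these data known. The clusters compared, the hemoglobin exclusion, the rule that leaves a cluster unnamed when markers of another class lead it, the cut-offs for mixed sub-clusters and the split of the mural classes were set after seeing the data.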

Additional observations from a re-analysis of the deposited data

How the results depend on the processing

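The ratio of the highest to the next class was recomputed with other clustering resolutions (0.4 and 1.2), with members and pathway genes among the variable genes, with doublets removed, with free RNA subtracted, with the filters of the study alone, with cells thinned to 1000 UMIs, with CPM averaged over single cells and without each library. For Pdgfa, Pdgfc and Pdgfd each alternative stayed within the counting interval, with leave-one-out ranges of 1.90 to 2.05, 1.29 to 1.85 and 3.88 to 5.405. The Pdgfb ratio of 1.08 was 1.04 with the filters of the study alone and 1.14 when averaging CPM over single cells. Leaving out libraries gave 0.966 to 1.24, and it turned below 1 without library 3. The Pdgfrb ratio of 5.10 was 4.30 after thinning and 4.23 when averaging CPM over single cells, and 4.52 to 5.67 without each library. The cause of these changes was not tested. The Pdgfra ratio over classes of at least 50 cells rested on 2 UMIs in each class and ranged from 0 (without library 3) to 7.52 without each library. With classes of at least 20 cells, an alternative chosen after seeing the data, it was 35.4, between fibroblast-like and choroid plexus-like cells. Thinning gave no Pdgfra value, because no UMI was left in these classes. No paired analysis was possible because the labels tie no library number to a condition and no test was made. Depth limits the values for Pdgfc, Pdgfd and Pdgfra in small classes.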
